A study of Homo sapiens with 6 samples.

Results

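DDC encodes the decarboxylase of dopamine and serotonin synthesis and was examined together with 8 genes that mark neuroendocrine cells, CHGA, CHGB, SYP, SCG2, NCAM1, INSM1, SCG5 and PCSK1N. Members were the probe sets whose only gene symbol in the array's annotation was one of these 9 names, which gave 17 of the 54675 probe sets on the array, for 9 of the 19775 genes with a probe set of their own. DDC was included because its signal differed between the 2 SOX9 siRNAs, so its values are given as a description without a test. The other 8 genes were listed as markers, and their values against control were tested.

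The cells were VCaP, a human prostate cancer line that carries the TMPRSS2/ERG fusion and was grown in DMEM with 10% serum. They were transfected with SOX9 siRNA A, SOX9 siRNA B or a non-targeting control siRNA, and total RNA was taken 72 h later for Affymetrix Human Genome U133 Plus 2.0 arrays. The 3 groups had 2 arrays each, described in the series' design as biological duplicates. The knockdown was transient, in 1 cell line, and the siRNA sequences were not used here.

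Neuroendocrine cells of the prostate are rare secretory epithelial cells, and prostate tumours can gain their features. Such cells store peptides and amines in dense-core granules, whose matrix is built from the granin proteins, and they are recognised in pathology by chromogranin A (CHGA), synaptophysin (SYP), CD56 (NCAM1) and INSM1. DDC needs vitamin B6 as its cofactor and acts after tyrosine hydroxylase or tryptophan hydroxylase in amine synthesis.

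DDC has 2 annotated start sites in RefSeq (GRCh38.p14), 4334 bases apart on the minus strand, and use of alternative first exons in neuronal and non-neuronal tissue is known for this gene. The 250 bases before each start are shown because DDC is the gene that differed between the siRNAs, and those of CHGA because all 4 of its SOX9 siRNA arrays lay below both controls. Capitals mark the motifs searched on both strands. These were ACAAT (a form of the SOX core), TGACGTCA (the cAMP response element) and TATAA (the TATA element).

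DDC upstream start, chr7:50565406-50565655, minus strand: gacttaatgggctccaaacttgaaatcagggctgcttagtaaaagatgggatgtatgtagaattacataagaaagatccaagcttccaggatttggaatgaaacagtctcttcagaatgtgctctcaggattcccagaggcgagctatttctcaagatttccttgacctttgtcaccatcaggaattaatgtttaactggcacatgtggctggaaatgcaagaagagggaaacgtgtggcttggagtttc
DDC downstream start, chr7:50561072-50561321, minus strand: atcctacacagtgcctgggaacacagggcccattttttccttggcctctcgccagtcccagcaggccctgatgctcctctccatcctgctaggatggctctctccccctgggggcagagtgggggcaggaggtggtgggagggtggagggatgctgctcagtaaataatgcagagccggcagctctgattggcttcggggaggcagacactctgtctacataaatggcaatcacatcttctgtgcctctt
CHGA start, chr14:92922900-92923149, plus strand: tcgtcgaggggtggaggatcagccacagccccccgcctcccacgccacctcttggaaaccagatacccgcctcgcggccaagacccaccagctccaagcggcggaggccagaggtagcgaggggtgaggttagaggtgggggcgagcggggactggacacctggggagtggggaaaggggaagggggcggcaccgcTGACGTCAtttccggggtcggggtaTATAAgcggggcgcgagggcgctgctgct

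Neither DDC window held any of the 3 motifs as spelled, and other forms of the SOX core were not searched. The CHGA window held a cAMP response element from 54 to 47 bases before the start and a TATA element from 29 to 25 bases before it. Over 35116 windows of the same length, 24.6% held ACAAT, 1.65% the cAMP response element and 18.9% the TATA element. The first DDC window had a GC content of 42.4%, the second 58% and the CHGA window 68.8%. A match is a run of letters and not a measured site, and the arrays do not tell which DDC start was used. Windows were found for 5 of the 9 genes: DDC, CHGA, SYP, SCG5 and PCSK1N.

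SOX9, the target of both siRNAs, had a signal of 1107.9 and 672.6 in siRNA A cells, 609.3 and 333.5 in siRNA B cells, and 1469.3 and 1126.2 in control cells in its representing probe set. As deposited, the knockdown arrays all lay under the 2 controls, as did 11.8% of all tested genes. Those of siRNA B lay under those of siRNA A. The closest to control was siRNA A replicate 1 at 1107.9, against 1126.2 in control replicate 2. Their 2%-trimmed mean signals were 165.2 and 175.7, so the order is given for the deposited scaling only. For both siRNAs SOX9 was at -1.02 on the log2 scale (SE 0.29), short of the test's threshold of 0.05 (limma adjusted p = 0.425). SOX9 was at -0.57 for siRNA A and -1.48 for siRNA B (SE 0.34 each, limma adjusted p = 0.999 and 0.111). The 2%-trimmed mean signal of the arrays ran from 143.6 to 190.0, so the overall level differed between arrays. Replicate 2 of both SOX9 siRNAs stood apart, with Pearson correlations of 0.943 to 0.968 with the controls over all tested genes, against 0.981 to 0.988 for replicate 1. Their part in the results was not tested beyond the values given without them. All 13 measured luminal prostate markers were above the filter on dim probe sets, a mean signal of 22.0, against 3 of 6 basal, 5 of 12 fibroblast and 2 of 10 leukocyte markers.

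DDC was high with siRNA A and near or below the control level with siRNA B. The signal of its bright probe set (205311_at) was 1139.7 and 1695.2 in siRNA A cells, 207.5 and 161.9 in siRNA B cells, and 207.6 and 331.4 in control cells. Both siRNA A arrays lay above the other 4 arrays. The siRNA B arrays lay below both controls, by 0.1 signal units for the closest pair, and they overlapped with control under 3 other scalings (quantile normalization, median centring and a common trimmed mean). Over all tested genes, 14.4% had both siRNA A arrays above both controls and 26.3% had both siRNA B arrays below them. In bulk RNA, a change in the number of cells that express a gene and a change in RNA per cell cannot be told apart.

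The mean DDC signal was 1417 ± 393 with siRNA A, 185 ± 32.2 with siRNA B and 269.5 ± 87.5 with control siRNA (SD, n = 2 each). On the scale of log2(signal + 16), siRNA A minus siRNA B was 2.82, or 7.05-fold. The closest pair of siRNA A and siRNA B arrays differed by 2.37 and the farthest by 3.27. The difference was also 2.37 without replicate 2 of both SOX9 siRNAs. Against control, siRNA A was at 2.34 and siRNA B at -0.48, or 71.5% of the control level. The siRNA B value ran from -0.80 without control replicate 1 to -0.17 without control replicate 2. The comparisons with control share the control arrays.

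The other DDC probe set (214347_s_at) was dim in all arrays and fell below the filter. Its signal was 12.4 and 13.7 in siRNA A cells, 2.6 and 2.2 in siRNA B cells, and 3.8 and 2.0 in control cells. The siRNA A arrays were again the 2 highest. Its difference between the siRNAs was 0.66 on the log2 scale, which the added 16 compresses at such low signals. The same RNA was hybridised to both probe sets, so the second is no independent sample.

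**Figure D1:**
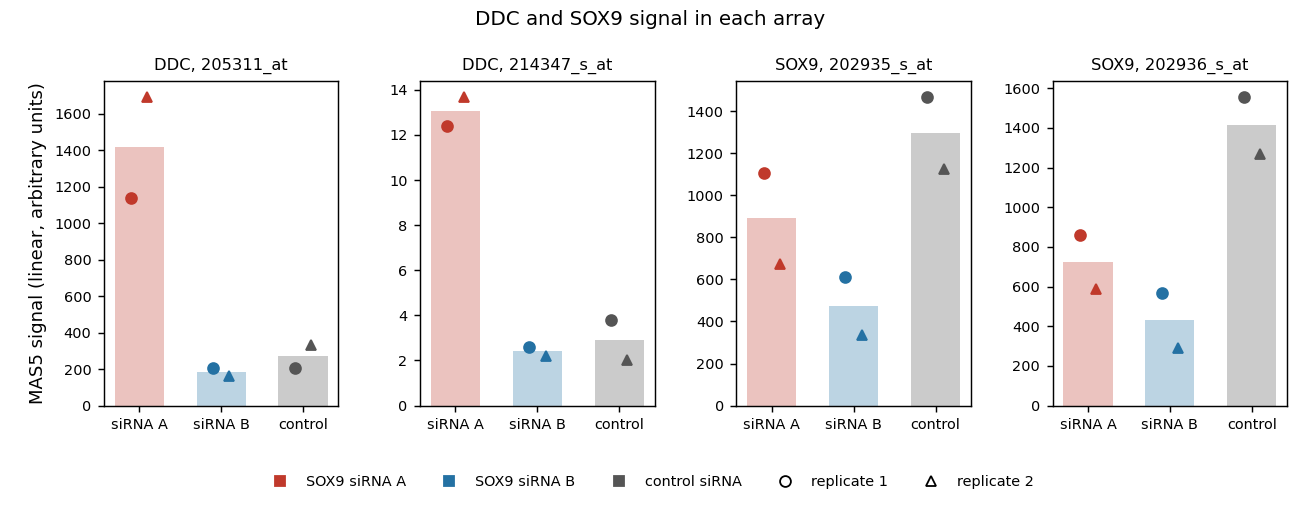
MAS5 signal (linear, arbitrary units) of the 2 DDC and 2 SOX9 probe sets in each array, with bars at the group mean and points for the replicates. DDC is high in both siRNA A arrays (1139.7 and 1695.2 in the bright probe set), whereas SOX9 is lowest with siRNA B.

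Of the 12431 genes tested, 0 differed more between siRNA A and siRNA B than DDC in either direction. The next were CXCL11, a chemokine, at 2.601, and COL14A1, a collagen, at 2.43. In this contrast 0.0965% of genes passed the limma test at an adjusted p below 0.05 (0.0483% higher and 0.0483% lower), and DDC was chosen from it. Among the other 8 genes, the difference of siRNA A minus siRNA B ran from -0.66 for SCG5 to 0.29 for CHGA, which was at -0.021 without replicate 2 of siRNA B. SCG5 passed the filter through siRNA B and control, since both of its siRNA A arrays were below the filter level, so its difference is not an exact size. SCG5, NCAM1 and CHGB had both siRNA A arrays below both siRNA B arrays, as did 15.2% of all tested genes. In 0 of these 8 did both siRNA A arrays lie above both siRNA B arrays, against 15.7% of all tested genes.

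**Figure D2:**
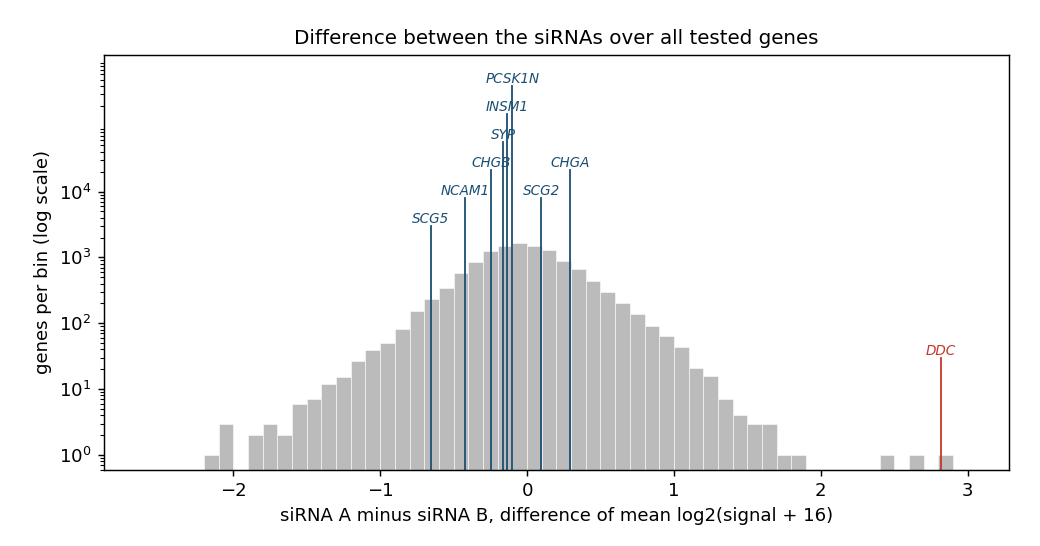
Number of tested genes (log scale) by the difference of siRNA A minus siRNA B in mean log2(signal + 16), with lines at DDC and the other 8 genes (their heights carry no value). DDC stands at 2.82, the right end of the distribution, and the other 8 lie between -0.66 and 0.29.

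None of the 8 neuroendocrine markers passed the limma test against control, with both siRNAs together or with either. This was 0 of 8 in each comparison, beside 0.0402% of all genes called for both siRNAs (0.0241% higher, 0.0161% lower), 0.0161% for siRNA A (all higher) and 0.185% for siRNA B (0.0885% higher, 0.0965% lower). At an unadjusted limma p below 0.05 there was 1 of 8 for both siRNAs (7.76% of all genes), 0 of 8 for siRNA A (4.72%) and 2 of 8 for siRNA B (11.3%). The median log2 fold change of the 8 was 0.020 for both siRNAs, -0.066 for siRNA A and 0.18 for siRNA B, beside -0.037, -0.046 and -0.021 over all tested genes. Without replicate 2 of both SOX9 siRNAs, 0 of 8 passed, and for both siRNAs CHGA was at -0.34 and INSM1 at 0.43. With 2 arrays a group, the number of arrays limits what the test can call.

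Among the granins, CHGA had the lower values with SOX9 siRNA. Chromogranin A drives granule formation and is the precursor of several peptides. Its signal was 276.4 and 253.3 in siRNA A cells, 268.7 and 168.8 in siRNA B cells, and 310.2 and 394.5 in control cells. All 4 SOX9 siRNA arrays lay below both controls, also under the 3 other scalings, and so did 11.8% of all tested genes as deposited. On the log2 scale CHGA was at -0.53 with both siRNAs (SE 0.26), -0.38 with siRNA A (SE 0.297) and -0.67 with siRNA B (SE 0.297), with limma adjusted p-values of 0.654, 0.999 and 0.406. Leaving out 1 siRNA B array moved its value to -0.99 (replicate 1 out) or -0.36 (replicate 2 out), with limma adjusted p-values of 0.0505 and 0.754.

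CHGB, chromogranin B, is another granule matrix protein. Its signal was 593.7 and 593.0 in siRNA A cells, 700.5 and 711.2 in siRNA B cells, and 540.6 and 699.9 in control cells. The siRNA A arrays lay within the range of the controls, and the siRNA B arrays just above the higher control. Over all tested genes, 13.1% had both siRNA B arrays above both controls. CHGB was at 0.071 with both siRNAs (SE 0.24, limma adjusted p = 0.973), with -0.051 for siRNA A and 0.19 for siRNA B. The siRNA A value was positive after median centring (0.0066).

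SCG2, the granin that yields secretoneurin, had the widest gap between replicates of the 9 genes on the log2 scale, 1.30 in siRNA A. Its signal was 29.3 and 95.2 in siRNA A cells, 41.5 and 60.6 in siRNA B cells, and 34.7 and 47.7 in control cells. Replicate 2 of siRNA A had the highest value and replicate 1 the lowest of the 6 arrays. The siRNA A value on the log2 scale was 0.32 (SE 0.37, limma adjusted p = 0.999), at 0.97 without replicate 1 and -0.33 without replicate 2 of that siRNA.

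The 2 partners of the prohormone convertases did not pass either. PCSK1N encodes proSAAS, an inhibitor of convertase 1, and had a signal of 91.5 and 138.3 in siRNA A cells, 107.5 and 138.1 in siRNA B cells, and 125.8 and 115.0 in control cells. The 3 groups overlapped, and the log2 fold change was -0.032 for both siRNAs (SE 0.24, limma adjusted p = 0.988), with a positive sign after quantile normalization (0.0065) or median centring (0.0094). SCG5 encodes 7B2, the chaperone of convertase 2, and had 14.8 and 16.8 in siRNA A cells, 24.6 and 45.7 in siRNA B cells, and 20.4 and 44.5 in control cells. Both siRNA A arrays were the lowest of the 6 and below the filter level of 22.0, and 23.8% of all tested genes had both siRNA A arrays below both controls. On the log2 scale SCG5 was at -0.56 for siRNA A, against 0.093 for siRNA B (SE 0.34 each, limma adjusted p = 0.999 and 0.956). The siRNA A value ran from -0.93 without control replicate 1 to -0.20 without control replicate 2.

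INSM1, the zinc finger transcription factor of neuroendocrine cells, had the higher values with SOX9 siRNA. The signal of its bright probe set (206502_s_at) was 416.6 and 490.8 in siRNA A cells, 455.9 and 545.8 in siRNA B cells, and 300.7 and 339.0 in control cells. All 4 SOX9 siRNA arrays lay above both controls, also under the 3 other scalings, as did 4.56% of all tested genes as deposited. On the log2 scale INSM1 was at 0.55 with both siRNAs (SE 0.24), 0.48 with siRNA A (SE 0.28) and 0.62 with siRNA B (SE 0.28), with limma adjusted p-values of 0.622, 0.999 and 0.424. The other INSM1 probe set (231558_at) did not share this order, with 31.9 and 53.7 in siRNA A cells, 20.0 and 40.6 in siRNA B cells, and 36.5 and 32.3 in control cells. In the fit over all probe sets it was at 0.020 for both siRNAs (SE 0.31, limma adjusted p = 0.996).

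The surface and vesicle markers had signals near the filter level. SYP, the synaptic vesicle protein synaptophysin, had a signal of 29.2 and 30.6 in siRNA A cells, 44.6 and 27.5 in siRNA B cells, and 27.1 and 27.4 in control cells. All 4 SOX9 siRNA arrays lay above both controls as deposited, as did 4.56% of all tested genes. The closest pair differed by 0.1 signal units, and the siRNA B arrays overlapped with control under each of the 3 other scalings. The log2 fold change of SYP for both siRNAs was 0.17 (SE 0.26, limma adjusted p = 0.936).

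NCAM1, the adhesion molecule CD56, had 7 probe sets, of which 2 were above the filter. The brighter (227394_at) had a signal of 48.2 and 34.3 in siRNA A cells, 49.5 and 72.5 in siRNA B cells, and 50.3 and 54.0 in control cells. The siRNA A arrays lay below both controls, also under quantile normalization, median centring and a common trimmed mean. As deposited, so did 23.8% of all tested genes. The siRNA B arrays spanned the controls as deposited, but lay above both controls under each of these other scalings. On the log2 scale NCAM1 was at -0.26 for siRNA A, against 0.16 for siRNA B (SE 0.29 each, limma adjusted p = 0.999 and 0.901). The next probe set (212843_at) had 33.7 and 32.3 in siRNA A cells, 35.5 and 49.1 in siRNA B cells, and 36.1 and 25.7 in control cells, so there the siRNA A arrays lay between the controls. The group means of the other 5 NCAM1 probe sets ran from 1.5 to 15.6.

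**Figure D3:**
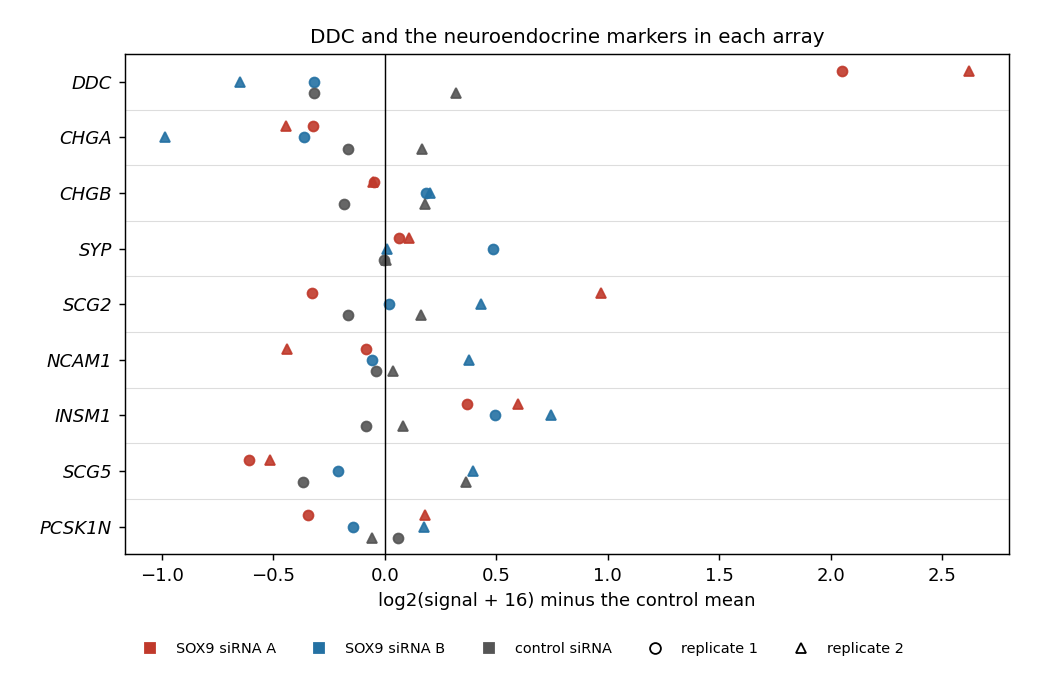
Level of DDC and the 8 markers in each array, as log2(signal + 16) minus the control mean, with colours for the groups and symbols for the replicates. The siRNA A arrays of DDC lie far to the right, CHGA lies left of control and INSM1 right of control in 4 of 4 SOX9 siRNA arrays.

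Genes whose values over the 6 arrays were most like those of DDC were sought among the 580 other tested genes whose group means spanned at least 1 on the log2 scale. The 6 with the highest Pearson correlation were LPXN (0.972), ANHX (0.937), ATP8A2 (0.926), KRT14 (0.91), RASSF8 (0.906) and LIX1 (0.905). These are descriptions over 6 arrays that share the same groups. RASSF8 had a signal of 620.4 and 887.2 in siRNA A cells, 245.9 and 365.8 in siRNA B cells, and 395.3 and 449.5 in control cells. LPXN, the adaptor protein leupaxin, had 164.5 and 202.8 in siRNA A cells, 77.4 and 62.5 in siRNA B cells, and 74.3 and 121.1 in control cells. The siRNA A arrays were the highest in these genes, which the choice by correlation with DDC brings with it. Their differences of siRNA A minus siRNA B ran from 1.05 for ATP8A2 to 1.37 for ANHX, against 2.82 for DDC. ANHX had 59.7 and 56.2 in siRNA A cells, and 3 of its other 4 arrays were below the filter level of 22.0, so its difference is not an exact size. The same holds for KRT14, whose siRNA B arrays were below that level, at 10.3 and 20.2. Of the 8 markers, SCG2 had the highest correlation with DDC, 0.315, and NCAM1 the lowest, -0.777.

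The genes beside DDC on chromosome 7 are described by their values. DDC had the largest difference of all tested genes, so smaller ones beside it were given by its choice. On one side the nearest genes with a probe set of their own were FIGNL1, IKZF1 and ZPBP, and on the other GRB10, COBL and POM121L12. GRB10, an adaptor of growth factor receptors, had a signal of 799.7 and 738.5 in siRNA A cells, 494.7 and 435.1 in siRNA B cells, and 579.7 and 712.2 in control cells. FIGNL1, a DNA repair ATPase, had 932.5 and 902.7 in siRNA A cells, 542.7 and 714.7 in siRNA B cells, and 674.4 and 852.9 in control cells. In both, the siRNA A arrays lay above those of siRNA B and control. Over all tested genes, 15.7% had both siRNA A arrays above both siRNA B arrays, and 14.4% had them above both controls. The difference of siRNA A minus siRNA B was 0.71 for GRB10 and 0.55 for FIGNL1. Neither passed against control (limma adjusted p from 0.604 to 0.999 over the 3 comparisons). COBL and IKZF1 were at -0.085 and -0.10 for siRNA A minus siRNA B, and ZPBP and POM121L12 were below the filter.

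**Figure D4:**
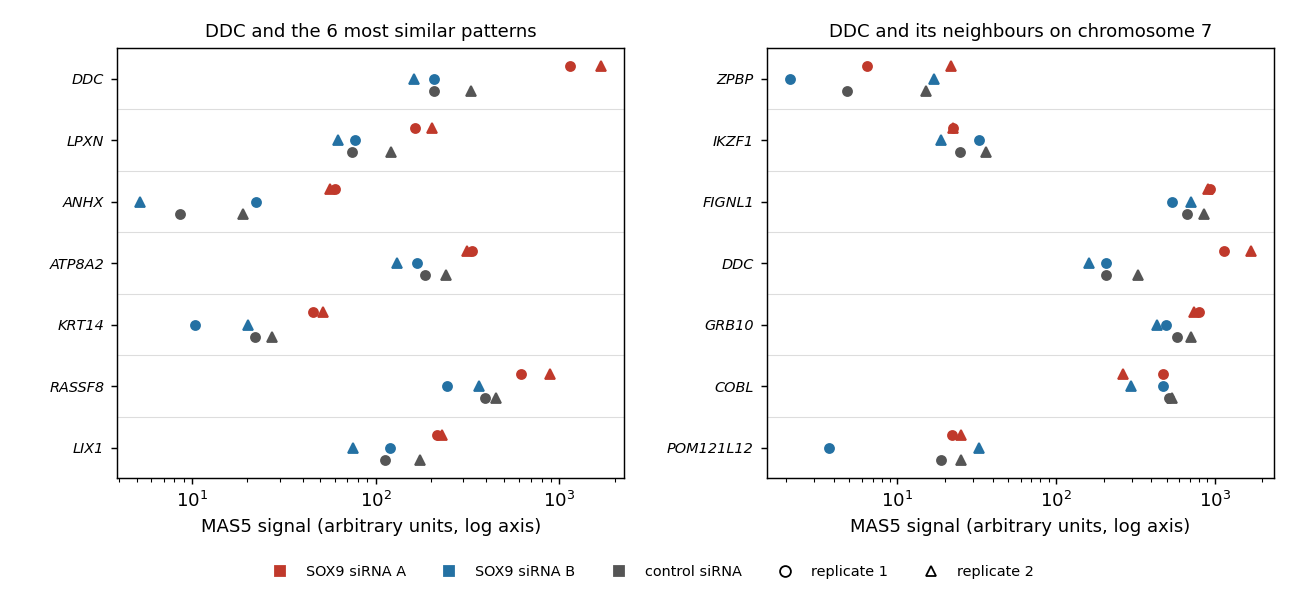
MAS5 signal (arbitrary units, log axis) in each array for DDC and the 6 genes with the highest correlation to it (left) and for DDC and its neighbours in chromosome order (right). Both siRNA A arrays lie to the right in the left panel, and among the neighbours in FIGNL1, DDC and GRB10.

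DDC works within a pathway that supplies its substrates and cofactors and handles its products, and 30 such genes were listed. Of the 27 with a probe set of their own, 13 were above the filter, and 0 of the 13 passed the limma test with both siRNAs, siRNA A or siRNA B. At an unadjusted limma p below 0.05 there were 2, 0 and 2, against 7.76%, 4.72% and 11.3% of all tested genes. Their median log2 fold change was -0.13, -0.12 and 0.058, beside the medians of -0.037, -0.046 and -0.021 over all tested genes. The enzymes that act just before DDC were below the filter: TH, tyrosine hydroxylase, had group means of 1.1 with siRNA A, 0.9 with siRNA B and 6.1 with control siRNA, and TPH1, tryptophan hydroxylase, 7.2, 12.8 and 14.4 in the same groups. PTS, which acts in the synthesis of the hydroxylases' cofactor tetrahydrobiopterin, had 1339.0 and 1954.1 in siRNA A cells, 1501.8 and 2936.1 in siRNA B cells, and 1298.0 and 1235.9 in control cells. As deposited, all 4 SOX9 siRNA arrays of PTS lay above both controls, as did 4.56% of all tested genes. The closest were siRNA A replicate 1 at 1339.0 and control replicate 1 at 1298.0. Their 2%-trimmed mean signals were 165.2 and 157.5, so the order is given for the deposited scaling only. The log2 fold change of PTS was 0.54 over both siRNAs (SE 0.27, limma adjusted p = 0.674). The siRNA B value of PTS was 0.72 (limma adjusted p = 0.395), and it was 1.20 once that siRNA's replicate 1 was left out. That fit held a single siRNA B array, replicate 2, which stood apart and whose spread is taken from the other groups. Without replicate 2 of both SOX9 siRNAs, PTS was at 0.16 for both siRNAs.

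Among genes that handle amines, MAOA, which degrades serotonin and dopamine, had a signal of 559.8 and 378.5 in siRNA A cells, 438.5 and 447.6 in siRNA B cells, and 826.3 and 593.1 in control cells. As deposited, all 4 SOX9 siRNA arrays of MAOA lay below both controls, as did 11.8% of all tested genes. The closest were siRNA A replicate 1 at 559.8 and control replicate 2 at 593.1. Their 2%-trimmed mean signals were 165.2 and 175.7, so this order too is given for the deposited scaling only. The log2 fold change of MAOA for both siRNAs was -0.61 (SE 0.26, limma adjusted p = 0.599). SLC18A1, a vesicular monoamine transporter, was at 45.6 and 4.5 in siRNA A cells, 53.7 and 2.6 in siRNA B cells, and 47.9 and 61.9 in control cells, so the low values were those of the replicate 2 arrays of the SOX9 siRNAs. Without these arrays SLC18A1 was at -0.11 for both siRNAs, against -0.98 with them, and MAOA at -0.49. GAD1, which makes GABA, and the amino acid transporter SLC7A5 were at -0.48 each for both siRNAs (limma adjusted p = 0.735 and 0.715).

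Of 32 further genes of the dense-core granule and of exocytosis, SYP among them, 29 had a probe set of their own and 22 were above the filter. None passed the limma test in any of the 3 comparisons, with 4 at an unadjusted p below 0.05 for both siRNAs, 1 for siRNA A and 6 for siRNA B, against 7.76%, 4.72% and 11.3% of all tested genes. Their medians in the same order were -0.083, -0.083 and -0.11. SNAP25, a protein of the membrane fusion complex, had 191.4 and 84.7 in siRNA A cells, 109.3 and 58.6 in siRNA B cells, and 208.1 and 175.4 in control cells. Its log2 fold change was -0.81 for both siRNAs (SE 0.301, limma adjusted p = 0.532). PTPRN2, a granule membrane protein, was at -0.74, CADPS, a priming factor of granule release, at 0.61, RAB27A, a GTPase of granule transport, at 0.65 and RAB3B, a vesicle GTPase, at 0.54, with limma adjusted p from 0.619 to 0.677. The value of RAB3B came from siRNA B, at 1.01, against 0.077 for siRNA A. For siRNA B alone, leaving out its replicate 1 moved SNAP25 to -1.47, PTPRN2 to -1.49, RAB3B to 1.43 and RAB27B to 1.07. The array left was replicate 2, which stood apart from the other arrays, so these are given as values only. The lone siRNA B array left in that fit is assumed to vary like the other groups. Without replicate 2 of both SOX9 siRNAs, the values for both siRNAs were -0.36 for SNAP25, -0.22 for PTPRN2, 0.27 for CADPS, 0.36 for RAB27A and 0.34 for RAB3B.

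Of 45 transcription factors, splicing factors, peptides and other genes tied to the neuroendocrine state, 42 had a probe set of their own and 24 were above the filter. None passed the limma test in any of the 3 comparisons, with 1, 2 and 0 at an unadjusted p below 0.05 for both siRNAs, siRNA A and siRNA B, against 7.76%, 4.72% and 11.3% of all tested genes. Their medians in that order were 0.012, 0.0016 and 0.019. REST, the repressor of neuronal genes, had 193.3 and 149.2 in siRNA A cells, 218.9 and 294.6 in siRNA B cells, and 170.3 and 224.9 in control cells, and both siRNAs overlapped with control. POU3F2, SOX2, MYCN, PROX1 and FOXA2, transcription factors described in neuroendocrine tumours, were below the filter.

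NPY, neuropeptide Y, was the member of that list with the smallest p. Its signal was 6291.9 and 11396.1 in siRNA A cells, 1817.4 and 4912.3 in siRNA B cells, and 1857.2 and 3131.9 in control cells. Both siRNA A arrays lay above the other 4, as for DDC. Over all tested genes, 14.4% had both siRNA A arrays above both controls, and 15.7% had them above both siRNA B arrays. NPY with siRNA A was at 1.80 on the log2 scale (SE 0.38, limma adjusted p = 0.280), and it passed at 1.43 without control replicate 1 (limma adjusted p = 0.0233), at 2.18 without control replicate 2 (limma adjusted p = 1.55e-06) and at 1.38 without replicate 2 of both SOX9 siRNAs (limma adjusted p = 5.15e-08). For both siRNAs it was 1.06 (limma adjusted p = 0.459), and 1.43 without control replicate 2 (limma adjusted p = 0.00281). Each of these fits left at least 1 group with 1 array, whose spread is taken from the other groups, and without replicate 2 of both SOX9 siRNAs only the 2 controls gave a spread. The peptide gene NTS, neurotensin, was at 1.07 for siRNA A (limma adjusted p = 0.936). Over both siRNAs CALCB was at -0.41, STMN3 at -0.30 and ONECUT2 at 0.32 (limma adjusted p from 0.816 to 0.856).

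**Figure D5:**
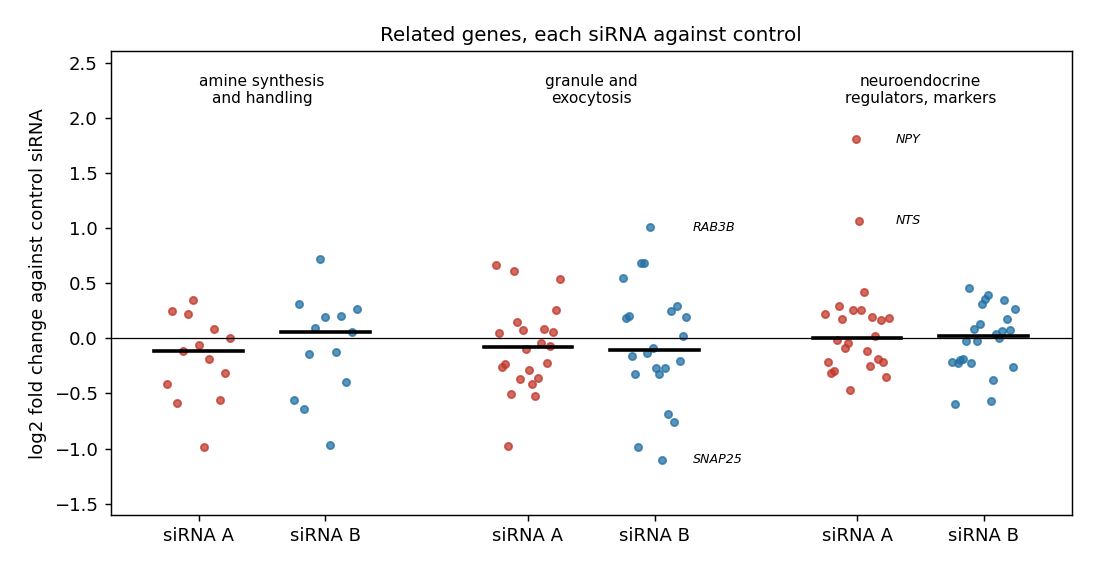
Log2 fold change against control siRNA of the tested genes of the 3 lists, for siRNA A and siRNA B, with a bar at the median and names at genes beyond 1. The medians lie between -0.12 and 0.058, and NPY with siRNA A has the highest value, 1.80.

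The summed levels of markers of other cell types overlapped between siRNA A and control. For 6 basal epithelial markers the sum was 3513.4 and 2505.4 in siRNA A cells, 3240.5 and 3515.6 in siRNA B cells, and 3501.8 and 3949.5 in control cells, although KRT14, one of them, was among the genes most like DDC. In replicate 1 of siRNA A, DST made up 1819.3 and ITGA6 1613.3 of this sum, and KRT14 45.3. The sum therefore says little about the dimmer basal markers. The summed signal of 12 fibroblast markers was 592.9 and 874.4 in siRNA A cells, 1135 and 2415.7 in siRNA B cells, and 545.9 and 740.4 in control cells, of which LUM, lumican, made up 2018.8 in replicate 2 of siRNA B. For 10 leukocyte markers it was 171.2 and 232.2 in siRNA A cells, 162.9 and 252.8 in siRNA B cells, and 173.4 and 211.0 in control cells. The ACTB 3'/5' ratio, a sign of RNA integrity, was 3.53 and 3.79 in siRNA A cells, 3.34 and 2.91 in siRNA B cells, and 3.07 and 3.15 in control cells. It was highest in the siRNA A arrays. The GAPDH 3'/5' ratio was 1.10 and 1.19 in siRNA A cells, 1.11 and 1.11 in siRNA B cells, and 1.05 and 1.04 in control cells, higher in all 4 SOX9 siRNA arrays than in the controls. The part of these ratios in the results was not tested.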

How the data were processed

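Total RNA of 6 VCaP samples was measured on 1 array each. The values deposited by the authors are linear signal intensity, with 1 value for each probe set. MAS5 is the tool named per the submitters' processing notes; no version or scaling target is stated in the labels, and the authors' scaling was kept. Gene names came from the platform annotation (41091 probe sets had 1 symbol, 1801 several, 11721 none, and 62 were controls). Where a gene had several probe sets, the one with the highest mean log2(signal + 16) stood for it. Genes whose mean was under the median over probe sets (5.25, or a signal of 22.0) were not tested, which removed 7344 genes and kept 12431. All 9 members were kept, with 11 of 17 probe sets above that filter. A fold change on this scale understates the change of dim genes. limma 3.58.1 in R 4.3.3 fitted the 3 groups over 6 arrays (3 residual degrees of freedom) with an intensity trend, and p-values were adjusted over all genes by Benjamini-Hochberg with a threshold of 0.05. The code was tested on simulated data. Nothing beyond the word duplicates says how cultures were separated, so p-values measure the spread between these samples. The members and the gene lists were chosen with earlier results of these data known. Named genes were the members, SOX9, the genes of each list called or with the 5 smallest p for both siRNAs, the 6 genes most like DDC and the 3 neighbours on each side of it; RAB27B, PAM, PHF19, LUM, TH, TPH1, REST, CXCL11, COL14A1 and the dim transcription factors were named after their values were seen. Promoter windows came from RefSeq (GRCh38.p14). Alternatives were 2 other log offsets, 3 scalings (a common 2%-trimmed mean was added after seeing the data), other filters, probe set choices and fit settings, the replicate number as a block, and arrays left out.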

Additional observations from a re-analysis of the deposited data

Results flagged for a closer look

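DDC had both siRNA A arrays above the control mean and both siRNA B arrays below it, and siRNA A minus siRNA B was 2.82 on the log2 scale. CHGB had the opposite arrangement, with both siRNA A arrays below and both siRNA B arrays above the control mean, and siRNA A minus siRNA B was -0.24. Its siRNA A arrays lay within the range of the controls. The siRNA A value of CHGB was -0.051, and it was positive after median centring (0.0066) or without control replicate 2 (0.13). Over all tested genes, 15.2% had both siRNA A arrays below both siRNA B arrays, and 15.7% had them above. The difference between the siRNAs was not tested for either gene.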

How the results depend on the processing

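The count of called markers was 0 for both siRNAs, siRNA A and siRNA B under every alternative run, including the replicate block. It was out of 8 markers except under the stricter filter, which left 4 (without SYP, SCG2, NCAM1 and SCG5), and the median over probe sets, which left 7 (without NCAM1). DDC for siRNA A minus siRNA B kept its sign throughout; it was 1.74 as the median of its 2 probe sets, 0.66 for the dim probe set 214347_s_at, 2.37 without replicate 2 of both SOX9 siRNAs and from 2.54 to 3.10 with single arrays left out. Markers near 0 changed sign. With single arrays left out, the log2 fold change for both siRNAs ran from -0.11 to 0.25 for CHGB, from -0.16 to 0.058 for NCAM1, from -0.16 to 0.098 for PCSK1N, from -0.052 to 0.60 for SCG2 and from -0.601 to 0.13 for SCG5; for siRNA A from -0.23 to 0.13 for CHGB, from -0.34 to 0.18 for PCSK1N and from -0.33 to 0.97 for SCG2; for siRNA B from -0.057 to 0.38 for NCAM1, from -0.14 to 0.18 for PCSK1N and from -0.27 to 0.46 for SCG5. Without replicate 2 of both SOX9 siRNAs, SCG2 was at -0.16 for both siRNAs and -0.33 for siRNA A, and for siRNA B NCAM1 was at -0.057, PCSK1N at -0.14 and SCG5 at -0.209. CHGB was at 0.0066 for siRNA A after median centring, and PCSK1N for both siRNAs at 0.0065 after quantile normalization and 0.0094 after median centring. The cause was not tested. Over all genes, the 5 called for both siRNAs became 0 with quantile normalization, with median centring and with a common trimmed mean, and 440 with the replicate block; the 2 for siRNA A, 23 for siRNA B and 12 for siRNA A minus siRNA B ran from 0 to 224, 991 and 361. The labels do not say that replicates with 1 number share a culture or day. The deviations of arrays with the same number correlated at 0.63 between the siRNAs and at 0.18 between each siRNA and control, over 2 numbers only. With the replicate block as pairing, 0 of the 8 markers were called, the smallest limma adjusted p being 0.144 for CHGA with siRNA B (-0.67). Over all 12431 tested genes, the block called 440 for both siRNAs, 224 for siRNA A and 732 for siRNA B. The 3 lists held 13, 22 and 24 tested genes. Of these, NPY (1.06), SLC18A1 (-0.98) and SNAP25 (-0.81) passed for both siRNAs, and PAM (-0.98), NTS (1.07) and NPY (1.80) for siRNA A. SLC18A1 (-0.97), PTPRN2 (-0.99), SNAP25 (-1.10) and RAB3B (1.01) passed for siRNA B. With replicate 2 of each SOX9 siRNA left out, PHF19 was at -0.85 for siRNA B, in a fit where 1 array was left for each SOX9 siRNA and only the 2 controls gave a spread. The number of arrays, and for SYP, SCG2, SCG5 and NCAM1 a signal near the filter level, limits the precision.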
